A study of Mus musculus with 10 samples.

Results

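The cytosolic ribosomal protein genes were taken from the table of read counts by name: every gene symbol made of Rpl or Rps followed by a digit, together with Rplp0, Rplp1, Rplp2 and Rpsa, without the names that contain -ps and without the Rps6k kinase genes. Of the 24015 genes listed, 87 had such a name and 82 of these had at least 100 reads summed over the 10 libraries. These 82 genes, 49 named for the large subunit and 33 for the small subunit, are described here. The 5 genes below the minimum were Rpl26, with 2 reads in all, and Rpl10l, Rpl39l, Rps27rt and Rps4l, with 0 reads. All 82 genes passed the filter on low counts, which kept 12971 genes. Of the 82, 5 are relatives of another ribosomal protein gene (Rpl3l, Rpl7l1, Rpl22l1, Rpl36al and Rps27l), and Rps19bp1 encodes a protein that binds Rps19 and is no part of the ribosome.

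RNA was sequenced from MAF9 cells, bone marrow cells of C57BL/6 mice transduced with the leukemia fusion gene MLL-AF9 and grown in IMDM that held interleukin-3 (10 ng/ml) and fetal bovine serum (15%). The cells were treated for 4 days with DMSO, with MM-401, which blocks the interaction of MLL1 with WDR5, with EPZ5676 (EPZ in the labels), an inhibitor of the methyltransferase DOT1L, with an inhibitor of MENIN that the labels call MI or MI-2 and the study calls MI-2-2, or with iBET, an inhibitor of BET bromodomain proteins. Each inhibitor was given at the dose the labels name as its IC50. All 5 groups carried MLL-AF9, so DMSO is a mock-treated leukemia culture and not normal bone marrow, and each group had 2 libraries.

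The cytosolic ribosome is the machine that translates mRNA, and its proteins sit in a small subunit that reads the message and a large subunit that forms the peptide bond. The subunits are assembled in the nucleolus with equal amounts of each core protein, and mRNAs for these proteins typically begin with a pyrimidine-rich stretch, the 5′ terminal oligopyrimidine (TOP) motif, through which mTORC1 and LARP1 control their translation. The genes have many processed pseudogenes in mammalian genomes, copies without introns whose sequence is close to that of the mRNA. Transcription of the genes has been tied to MYC and to ETS-family, YY1 and SP1 sites in their promoters.

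The sequence around the annotated start is shown for the 6 genes with the most reads among the members with a TOP-like tract, relatives aside, because the tract is the feature that the group is known for. RefSeq promoters (GRCm38.p6) were matched to 62 of the 82 genes. Each line gives 30 bases, 15 on either side of the RefSeq start, 5′ to 3′ on the strand of the gene, with the pyrimidine run in capitals.

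Rpl13a: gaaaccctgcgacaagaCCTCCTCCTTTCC
Rps9: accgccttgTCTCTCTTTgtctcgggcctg
Rps2: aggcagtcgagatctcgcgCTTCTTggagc
Rps26: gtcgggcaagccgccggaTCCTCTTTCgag
Rps21: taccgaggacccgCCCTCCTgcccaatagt
Rps15a: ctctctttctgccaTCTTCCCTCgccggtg

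Rpl13a lies on the minus strand at chr7:45128731-45128760, Rps9 on the plus strand at chr7:3704026-3704055, Rps2 on the plus strand at chr17:24720048-24720077, Rps26 on the minus strand at chr10:128626492-128626521, Rps21 on the plus strand at chr2:180257364-180257393 and Rps15a on the minus strand at chr7:118116133-118116162. The same window is shown for the family relatives and for Rps27, because the counts of relatives are set beside each other below.

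Rps27: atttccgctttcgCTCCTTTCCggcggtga
Rps27l: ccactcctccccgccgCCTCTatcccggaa
Rpl22l1: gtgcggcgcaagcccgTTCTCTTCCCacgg
Rpl36al: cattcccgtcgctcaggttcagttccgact
Rpl7l1: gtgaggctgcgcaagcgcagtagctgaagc
Rpl3l: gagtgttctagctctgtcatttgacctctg

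Rps27 (minus strand, chr3:90213634-90213663), Rps27l (plus strand, chr9:66946071-66946100) and Rpl22l1 (plus strand, chr3:28805493-28805522) held a tract. Rpl36al (minus strand, chr12:69184053-69184082), Rpl7l1 (minus strand, chr17:46782642-46782671) and Rpl3l (plus strand, chr17:24727811-24727840) held none.

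A tract, defined as a C followed by at least 4 pyrimidines with the C within 5 bases of the RefSeq start on the sense strand, was present in 29 of 62 members (46.8%) and in 21.7% of the 16775 genes of the count table with a RefSeq promoter. The other motifs were searched on both strands from 250 bases before to 50 bases after the start. The letters CCGGAAG, bound by ETS-family factors, were found in 24 of 62 members (38.7%) and in 12.8% of all promoters, and CCATNTT, the core of the YY1 site, in 20 members (32.3%) and in 17.4% of all promoters. The E-box CACGTG, which MYC with MAX can bind, was found in 6 members (9.7%) and in 9.2% of all promoters. A match describes the letters in this window and shows no binding.

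The libraries held 20394762 to 29473127 counted reads. The labelled cell type was checked with 10 myeloid and leukemia genes, all of which passed the filter. Their summed level was 6033 to 10266 CPM in DMSO and lowest in iBET, at 1731 to 2144. Gene by gene, their median log2 fold change against DMSO was -0.15 with iBET, -0.26 with MM-401, -1.09 with EPZ5676 and -1.32 with MI-2-2. At an edgeR adjusted p under 0.05, 2 of the 10 were lower and 0 higher with iBET, against 7.54% of all tested genes lower. With EPZ5676 and with MI-2-2, 4 were lower and 3 higher. Of all tested genes, 19.4% and 21.2% were lower and 18.7% and 20.2% higher. A list of 5 stroma and endothelium genes lay at 23.4 to 44.1 CPM in DMSO and 6.85 to 8.80 in iBET. Lists of erythroid, T cell and B cell genes were low. The summed level was 0.282 to 1.17 CPM for 6 erythroid genes (Hbb-b1, Hbb-b2, Hba-a1 and Hba-a2 had 0 reads) and 1.61 to 4.98 CPM for 4 T cell genes (Cd3e had 0 reads). That of 4 B cell genes (Pax5 had 0 reads) was 2.92 to 3.4997 CPM in DMSO, 7.96 to 8.24 after EPZ5676 and 0.133 to 0.459 in iBET. The DMSO libraries were not alike. DMSO library 2 held 3630 reads on 4 Y-linked genes, against 0 to 2 reads in each of the other 9 libraries, and 4.76 CPM of Xist against 928 to 3051 CPM, so the results against DMSO are also given against each DMSO library. The DMSO libraries differed by a median absolute log2 difference of 0.38 over all tested genes and 0.19 over the ribosomal protein genes, and Rpl10a, Rpl27 and Rpl30 differed more than 2-fold between them. By the Y-linked genes and Xist, the 2 DMSO libraries came from cells of different sex, and every inhibitor library was like DMSO library 1. Nothing in the labels says whether the 2 libraries of a group came from separate cultures, while the study calls its samples biological duplicates. The p-values measure the spread between these libraries, which for DMSO includes that difference.

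The ribosomal protein genes took a smaller share of the reads with each inhibitor than with DMSO. They held 1.61% and 1.48% of all counted reads in the DMSO libraries. In the MM-401 libraries the share was 1.27% and 1.24%, and in the iBET libraries 1.19% and 1.22%. It was 1.11% and 1.09% after EPZ5676 and 0.942% and 0.745% after MI-2-2. All 8 inhibitor libraries were below both DMSO libraries, and the MI-2-2 libraries were below all others. As a ratio to the DMSO mean, the mean share was lowest after MI-2-2, at 0.546, followed by 0.710 after EPZ5676, 0.779 after iBET and 0.811 after MM-401. With 2 libraries against 2, the exact two-sided permutation test gave p = 0.333 in each case, the smallest value that the design allows. In bulk RNA, fewer cells of a type and less RNA of these genes per cell cannot be told apart. After scaling by TMM, which sets libraries on a common scale from the bulk of the genes, the ratios were 0.604, 0.799, 0.796 and 0.825 in the same order.

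**Figure D1:**
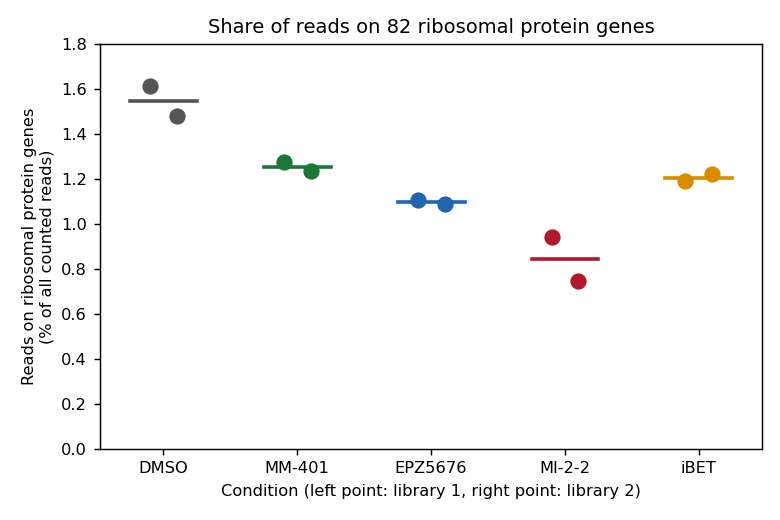
Share of all counted reads that fell on the 82 ribosomal protein genes (y axis, percent) in each library, by condition (x axis). Points are libraries and bars are the means of 2 libraries. The DMSO libraries sit at 1.61% and 1.48%, all inhibitor libraries sit below them, and the MI-2-2 libraries are lowest at 0.942% and 0.745%.

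Levels varied widely among the members. Reads per kilobase of mRNA and 1000000 counted reads (RPKM), with lengths from GENCODE M21, had a median of 83.1 in DMSO, a lowest value of 0.278 for Rpl3l and a highest of 1773 for Rpl8. The level of Rpl4 was 1296, and the 5 members with the most reads held 46.2% of the reads of the group. For each member, the 50-base windows of its mRNA that occur in no other annotated gene were counted. They made up 100% of the windows of Rps19bp1, 92.1% of those of Rpl8 and 97.0% of those of Rps3, which encodes a small subunit protein at the mRNA entry. They made up 1.4% of the windows of Rps27, 7.6% of those of Rps10 and 13.3% of those of Rps18. The median over members was 45.5%, and 79 of 82 members shared windows with at least 1 annotated pseudogene. The 34 members with at least 50% unique windows had a median of 112 RPKM in DMSO, and the 48 others 36.7 RPKM. Across the 82 genes, the share of unique windows and the RPKM correlated with Spearman's rho = 0.38. This is a description, as genes are not independent and all points share the same 2 libraries. How reads that match more than 1 gene were counted is not given in the sources used here, so low values such as 6.66 RPKM for Rps27 cannot be read as low expression. Levels of different members are not compared further, and the shares of reads within pairs of relatives given below are not shares of mRNA.

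**Figure D2:**
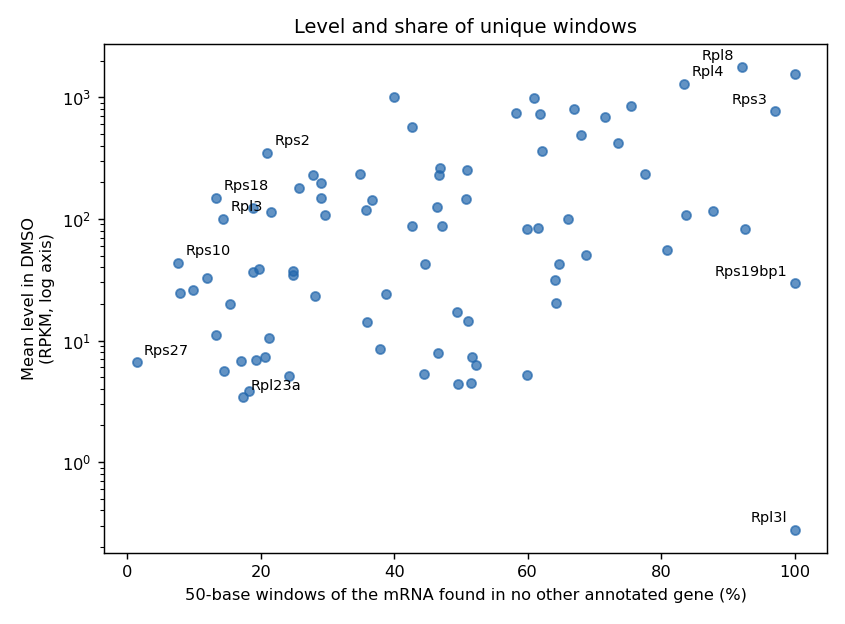
Mean level in DMSO (y axis, RPKM, log axis) against the share of 50-base windows of the mRNA that occur in no other annotated gene (x axis, percent) for the 82 genes. Each point is a gene. Genes at the top, such as Rpl8 and Rpl4, have over 80% unique windows, and Rps27 at 1.4% lies low, while Rpl3l is low with 100% unique windows.

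Reads also fell on neighbours in name that the rule left out. The gene listed as Rpl14-ps1 held 64392 reads, more than the 26021 of Rpl14, and 5656 reads were listed for Rps15a-ps4. Rpl14-ps1 fell with EPZ5676 by 0.66 on the log2 scale (SE 0.16, edgeR adjusted p = 0.0138) and with MI-2-2 by 0.84 (SE 0.16, edgeR adjusted p = 0.00499). Rpl14 itself fell in both (log2 fold changes -0.64 and -0.82, edgeR adjusted p = 0.0182 and 0.00645). The 2 genes therefore had similar values, and since reads of one could be counted on the other they are reported as uncertain in level.

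The most ribosomal protein genes were lower with MI-2-2. With edgeR's quasi-likelihood test, 64 of 82 members (78.0%) were lower than in DMSO at an adjusted p under 0.05, against 21.2% of all tested genes, and 1 was higher, against 20.2%. The median log2 fold change of the members was -0.76, against -0.05 for all tested genes, and the middle 50% of members lay between -0.95 and -0.63. Both MI-2-2 libraries were below both DMSO libraries for 80 of 82 members, against 34.9% of all tested genes. Against DMSO library 1 alone the library medians were -0.60 and -0.83, and against DMSO library 2 alone they were -0.70 and -0.90. Without DMSO library 1, 70 members were lower at an adjusted p under 0.05, and without DMSO library 2, 51. In these fits 53.9% and 37.6% of all genes tested were called in either direction. Without MI-2-2 library 2, whose share of ribosomal protein reads was the lowest of the series, 28 members (34.1%) were called in all, against 20.7% of all genes tested, and without MI-2-2 library 1, 52 (63.4%), against 26.2%. The fall covered both subunits, with 37 of 49 large subunit members lower (median -0.82) and 27 of 33 small subunit members lower (median -0.73). It was also seen among the 34 members with at least 50% unique windows, of which 29 were lower (median -0.67), and among the 41 members with at least 10000 reads, of which 38 were lower (median -0.72).

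The deepest falls with MI-2-2 were those of 3 large subunit genes. Unique windows made up 11.9% of the windows of Rpl10a, 37.8% of those of Rpl11 and 51.0% of those of Rpl12. Rpl10a had 13.6 and 32.2 TMM-scaled CPM in the DMSO libraries and 7.33 and 7.27 with MI-2-2. The DMSO libraries were far apart for this gene, yet both lay above the MI-2-2 libraries. The log2 fold change was -1.65 (SE 0.36, edgeR adjusted p = 0.00858), and the call was lost without MI-2-2 library 2. Rpl11, which encodes a protein of the 5S ribonucleoprotein that binds MDM2 under ribosome stress, had 5.02 and 8.49 CPM in DMSO and 2.08 and 2.30 with MI-2-2. It changed by -1.62 (SE 0.30, edgeR adjusted p = 0.00498). Rpl12, a protein at the base of the stalk, had 15.8 and 18.4 CPM in DMSO and 6.03 and 5.84 with MI-2-2, and it changed by -1.53 (SE 0.19, edgeR adjusted p = 0.00118). Neither the Rpl11 nor the Rpl12 groups overlapped, and the call of Rpl12 was kept in all 17 alternatives run for it.

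The other genes of known role moved less, and mostly in the same direction. Rpl5, the partner of Rpl11 in the 5S particle, had 8.02 and 9.44 CPM in DMSO and 4.60 and 3.73 with MI-2-2 (log2 fold change -1.07, SE 0.24, edgeR adjusted p = 0.0105), a call that was lost without MI-2-2 library 2. Rps6, the target of the S6 kinases, had 16.4 and 16.9 CPM in DMSO and 9.06 in each MI-2-2 library (log2 fold change -0.88, SE 0.16, edgeR adjusted p = 0.00446). Rps19, mutated in Diamond-Blackfan anemia, fell by 0.73 (SE 0.15, edgeR adjusted p = 0.00623), and Rps14, deleted in the 5q- syndrome, fell by 0.66 (SE 0.17, edgeR adjusted p = 0.0177). Both of these calls were lost without MI-2-2 library 2. In the stalk, to which translation factors bind, Rplp1 fell by 0.79 (edgeR adjusted p = 0.00295), Rplp2 by 0.69 (edgeR adjusted p = 0.0281) and Rplp0 by 0.59 (edgeR adjusted p = 0.0214). The call of Rplp2 was lost without any 1 of DMSO library 1, MI-2-2 library 1, MI-2-2 library 2, iBET library 1 and iBET library 2, and that of Rplp0 without DMSO library 2 or MI-2-2 library 2. Rpl23, another inhibitor of MDM2 in its free form, had 119 and 82.3 CPM in DMSO and 76.1 and 72.7 with MI-2-2, and its log2 fold change of -0.44 (SE 0.18) missed the threshold (edgeR adjusted p = 0.0803).

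Fewer members were called lower with EPZ5676. There were 22 members lower at an edgeR adjusted p under 0.05, or 26.8%, against 19.4% of all tested genes, and 1 higher, against 18.7%. The share called lower was nearer to that of all genes than with MI-2-2. With total-count scaling, 44 members were lower, and 54.9% of members and 42.9% of all tested genes were called in either direction, against 28.0% and 38.1% with TMM. In the TMM fit, 79 of 82 members had a log2 fold change below 0, with a median of -0.39 against -0.06 for all tested genes. Both EPZ5676 libraries were below both DMSO libraries for 62 members, against 33.0% of all tested genes. The library medians were -0.39 and -0.28 against DMSO library 1 and -0.47 and -0.37 against DMSO library 2. The count of lower members was 29 without DMSO library 1 and 14 without DMSO library 2, and in these fits 36.6% and 18.3% of members were called in either direction, against 51.0% and 35.5% of all genes tested. Leaving out 1 EPZ5676 library left 6 or 8 members called, against 25.5% or 19.7% of all genes tested, and leaving out 1 library of MM-401 or iBET left 10 to 12, against 29.6% to 30.8%.

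Rps2, a small subunit protein near the decoding site, had the smallest p among members in this comparison and was picked after its values were seen. It had 329.98 and 337 CPM in DMSO, 185 and 172 with EPZ5676 and 165 and 159 with MI-2-2. The groups did not overlap, and the log2 fold changes were -0.90 (SE 0.11, edgeR adjusted p = 0.00103) with EPZ5676 and -1.04 (SE 0.11, edgeR adjusted p = 0.000676) with MI-2-2. Its unique windows were 21.0%, with 68 pseudogenes that shared windows. Rpl3, the large subunit protein next to the peptidyl transferase center, had 134 and 124 CPM in DMSO and 73.8 and 68.1 with EPZ5676, a change of -0.86 (SE 0.16, edgeR adjusted p = 0.00473). The unique windows of Rpl3 were 14.4%, and 26 pseudogenes shared windows with it. Rpl12 was again among the 3 lowest, at 7.86 and 8.66 CPM with EPZ5676 (log2 fold change -1.05, SE 0.19, edgeR adjusted p = 0.00482). The calls of Rps2 and Rpl3 with EPZ5676 were kept in all 17 alternatives. Rpl10a (-1.26, SE 0.35, edgeR adjusted p = 0.0254) and Rpl11 (-1.05, SE 0.30, edgeR adjusted p = 0.0265) were the other 2 of the 3 lowest, and both calls were lost without DMSO library 2 or without either EPZ5676 library. The call of Rpl11 was also lost without either MM-401 library or without iBET library 2. At the other end, Rps16 (log2 fold change 0.09, edgeR adjusted p = 0.708) and Rpl35a (0.24, edgeR adjusted p = 0.259) had values slightly above DMSO that missed the threshold.

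iBET left most members below DMSO without a call. The median log2 fold change was -0.31, against -0.04 for all tested genes, and 77 of 82 members were below 0, but only 4 (4.88%) were lower at an edgeR adjusted p under 0.05, against 7.54% of all tested genes. Both iBET libraries were below both DMSO libraries for 57 members, against 26.9% of all tested genes. The 4 called genes, named here because they are few, were Rpl39 (log2 fold change -0.58, SE 0.15, edgeR adjusted p = 0.0438), Rps19 (-0.54, SE 0.15, edgeR adjusted p = 0.0456), Rpl41 (-0.46, SE 0.12, edgeR adjusted p = 0.0377) and Rps2 (-0.41, SE 0.11, edgeR adjusted p = 0.0411). All 4 lay just inside the threshold and were unstable. Each of these calls was lost when any 1 library of EPZ5676, MM-401 or iBET was left out. Fewer of all genes tested were called in those fits too. The median of members was -0.32 without DMSO library 1 and -0.26 without DMSO library 2. DESeq2 called 17 members lower, against 11.3% of the genes it tested. The 3 highest members, Rps28 (0.22), Rplp2 (0.11) and Rpl10 (0.08), and the 2 lowest after Rpl3l, Rpl24 (-0.90) and Rps27 (-0.73), missed the threshold, and these 5 log2 fold changes had edgeR adjusted p-values between 0.112 and 0.858.

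With MM-401 no member was called, as was true of all 12971 tested genes (0.0%). Without adjustment, edgeR gave p under 0.05 for 30 members, against 11.2% of all tested genes, and 29 of these 30 were lower, against 5.59%. DESeq2 called 12 members, all lower, against 1.08% of the genes it tested. The median log2 fold change was -0.24, against -0.01 for all tested genes, and both MM-401 libraries were below both DMSO libraries for 46 members, against 17.8% of all tested genes. Without DMSO library 1, edgeR called 7 members (8.54%) and 10.2% of all genes tested, and without DMSO library 2, it called 0 of either. The members spread more widely around their median than with iBET, with an SD of 0.36 against 0.24.

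**Figure D3:**
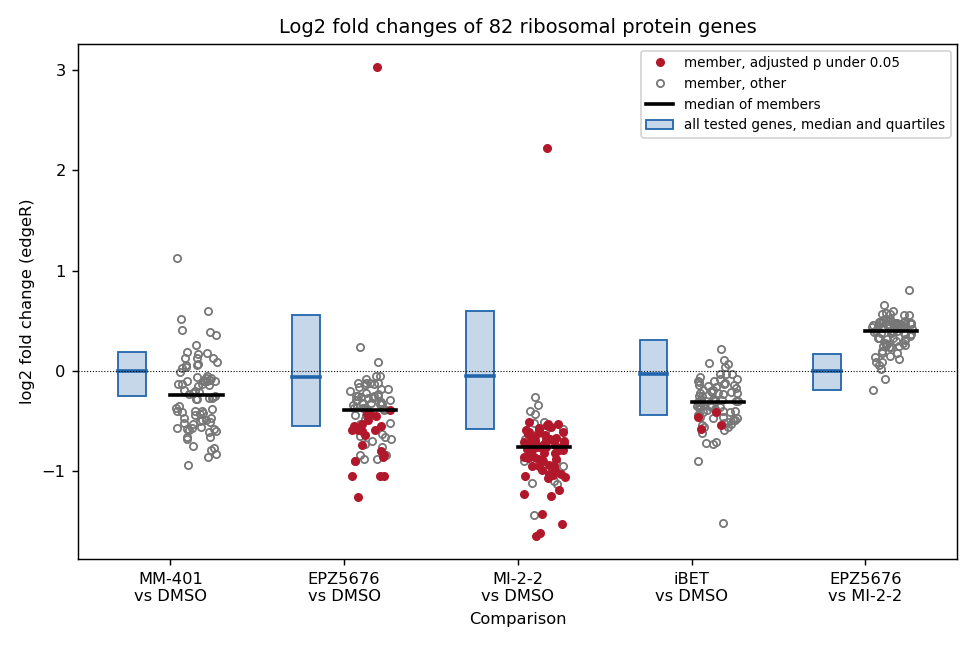
Log2 fold changes (y axis, edgeR) of the 82 genes in 5 comparisons (x axis). Filled points are members at an adjusted p under 0.05, open points the others, black bars the median of members, and boxes with a bar the quartiles and the median of all tested genes. The median of members moved from -0.24 with MM-401 to -0.76 with MI-2-2, and the 2 filled points above 0 are Rpl3l.

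Individual members went both ways with MM-401. Rps12, a small subunit protein, had 9.03 and 15.7 CPM in DMSO and 18.1 and 19.1 with MM-401, so that both MM-401 libraries were above both DMSO libraries. Its log2 fold change of 0.59 (SE 0.27) missed the threshold (edgeR adjusted p = 0.48). Rps27l, a relative of Rps27 that is a known target of p53, had 109.9 and 114 CPM in DMSO and 138 and 158 with MM-401 (log2 fold change 0.41, SE 0.14, edgeR adjusted p = 0.36). Rpl22l1 lay at the other end, with 44.7 and 47.9 CPM in DMSO and 23.9 and 24.6 with MM-401. Its log2 fold change of -0.93 (SE 0.17) was the lowest of the group and also missed the threshold (edgeR adjusted p = 0.223). The values of Rpl37a (-0.86) and Rpl31 (-0.83) were the next lowest, with edgeR adjusted p-values of 0.273 and 0.36.

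**Figure D4:**
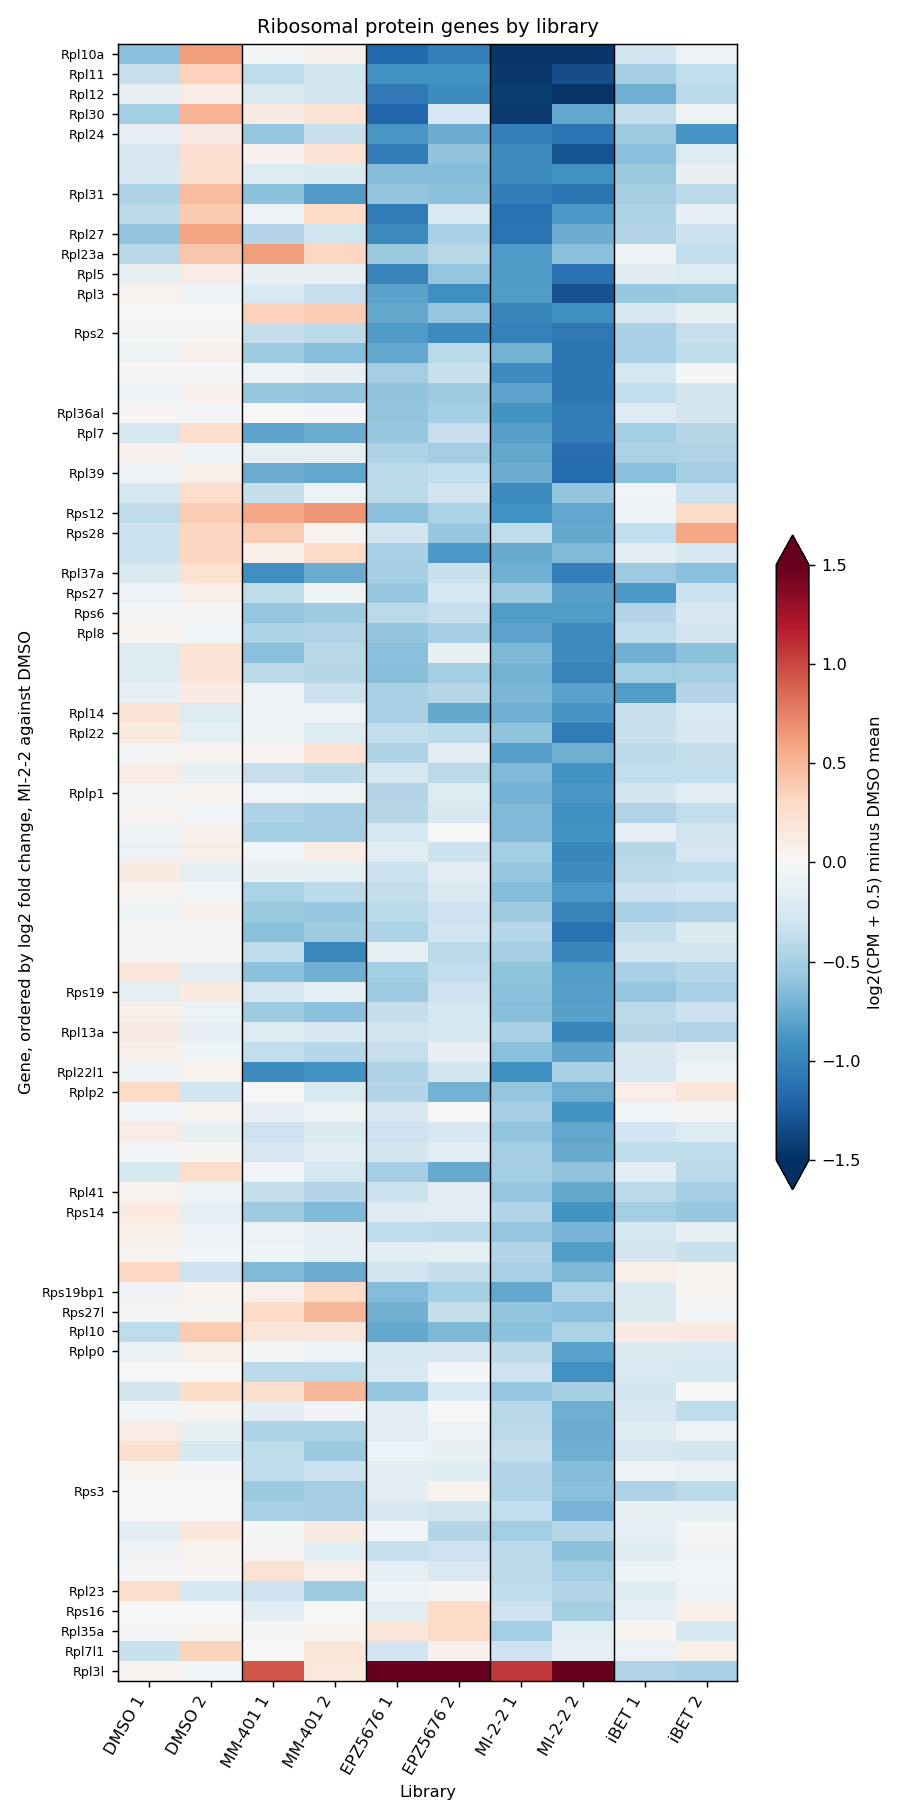
Each of the 82 genes (y axis, ordered by log2 fold change with MI-2-2, with names for most of those described in the text) in each of the 10 libraries (x axis), as log2(CPM + 0.5) minus the mean of the DMSO libraries. Blue is below and red above the DMSO mean, and the color scale ends at -1.5 and 1.5. The MI-2-2 columns are blue for nearly all genes, the DMSO columns differ for Rpl10a, Rpl27 and Rpl30, and the MM-401 columns are red for Rps12 and Rps27l.

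These comparisons share the DMSO libraries, so the inhibitors were also compared with each other. The p-values come from the same fit of all 10 libraries, so the spread between the DMSO libraries enters them too. Between EPZ5676 and MI-2-2, edgeR called 0 members, against 0.0154% of all tested genes, while 35 members had p under 0.05 before adjustment, all higher with EPZ5676, against 3.59% of all tested genes that were higher. An edgeR fit of these 2 groups alone also called 0 members, against 0.0238% of all genes tested. The median log2 fold change of EPZ5676 against MI-2-2 was 0.40, against -0.01 for all tested genes, and 80 of 82 members were above 0. Both EPZ5676 libraries were above both MI-2-2 libraries for 62 members, against 18.6% of all tested genes. The median over members was above 0 in each of the 4 pairs of 1 EPZ5676 and 1 MI-2-2 library, from 0.24 to 0.53. DESeq2 called 8 members, all higher with EPZ5676, against 0.529% of the genes it tested. Library 1 of MI-2-2 was above library 2 by a member median of 0.18 on the log2 scale, and the median absolute difference between them was 0.23, against 0.19 between the DMSO libraries. The median against EPZ5676 was 0.29 without MI-2-2 library 2 and 0.50 without MI-2-2 library 1.

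Against MM-401, MI-2-2 had 36 members lower at an edgeR adjusted p under 0.05, against 17.6% of all tested genes, and 0 higher, against 18.0%, with a median of -0.51. Without MI-2-2 library 2, 11 members (13.4%) were called, against 16.3% of all genes tested, and without MI-2-2 library 1, 22 (26.8%), against 19.5%. Leaving out 1 library of MM-401 left 9 or 10 members, against 12.9% or 13.9% of all genes tested. EPZ5676 had 13 lower and 3 higher, against 16.6% and 16.7% of all tested genes, with a median of -0.16, so the shares of members called were near or below those of all genes. With total-count scaling these became 21 lower and 1 higher, with 26.8% of members and 37.7% of all tested genes called in either direction. The 16 calls fell to 6 or 3 without 1 EPZ5676 library and to 2 or 1 without 1 MM-401 library, and rose to 27 or 31 without 1 DMSO library, where 47.0% or 46.9% of all genes tested were called. iBET had 1 member lower and 1 higher than MM-401, against 5.96% and 5.48% of all tested genes, with a median of -0.09.

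The direct comparisons set a few members apart. Rps12 stood at 6.11 and 6.72 CPM with MI-2-2 and 18.1 and 19.1 with MM-401, a log2 difference of -1.53 (SE 0.28, edgeR adjusted p = 0.00549). Its unique windows were 9.9%, and 22 pseudogenes shared windows with it. Rps27l stood at 67.8 and 87.2 CPM with EPZ5676 and 73.7 and 72.4 with MI-2-2, and its log2 differences from MM-401 were -0.93 (SE 0.14, edgeR adjusted p = 0.00329) and -1.02 (SE 0.14, edgeR adjusted p = 0.00241). These 3 calls were kept in all 17 alternatives run for each. Rps3 went the other way, with 1240 and 1438 CPM with EPZ5676, 947 and 971 with MM-401 and 1384 and 1390 in DMSO. It was higher with EPZ5676 than with MM-401 (log2 fold change 0.48, SE 0.14, edgeR adjusted p = 0.032), a call that was lost without EPZ5676 library 2 or any 1 library of MM-401 or iBET. Rpl22l1 was higher with EPZ5676 (0.57, SE 0.17, edgeR adjusted p = 0.0377) and with iBET (0.77, SE 0.17, edgeR adjusted p = 0.029) than with MM-401. Both of these calls were lost when a library of either group compared was left out, and the EPZ5676 call also without either iBET library.

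**Figure D5:**
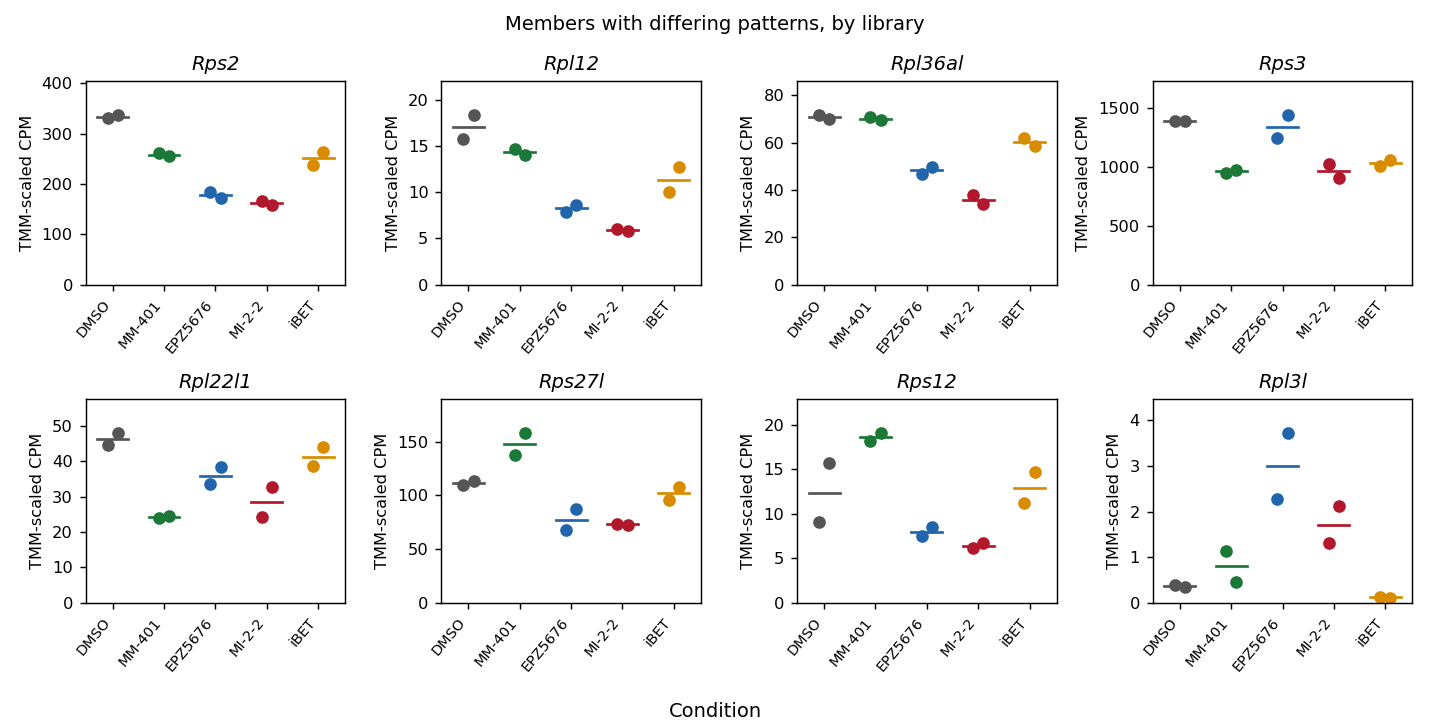
TMM-scaled CPM (y axes, from 0) of 8 members in each library by condition (x axes), with bars at the means of 2 libraries. Rps2, Rpl12 and Rpl36al are lowest with MI-2-2, Rps3 is near DMSO with EPZ5676 only, Rpl22l1 is lowest with MM-401, Rps27l and Rps12 are highest with MM-401, and Rpl3l is highest with EPZ5676.

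In 2 of the 5 pairs of relatives, those of Rpl36a and Rps27, the relative held nearly all reads of the pair in every library. Rpl36a and Rps27 had at most 65 reads per library, so this share says little about changes in the ratio. In the other 3 pairs the share varied between libraries. Unique windows differed within the pairs, at 14.5% for Rpl36a and 36.7% for Rpl36al, and 46.7% for Rpl7 and 87.8% for Rpl7l1. They were 14.4% for Rpl3 and 100% for Rpl3l, and 75.5% for Rpl22 and 42.7% for Rpl22l1. The shares therefore describe counted reads and not the amounts of the 2 mRNAs of a pair. Rpl3l, a muscle form of Rpl3, was the 1 member called higher than DMSO by edgeR, and it was at a very low level, with 10 and 7 reads in the DMSO libraries, 27 and 11 with MM-401, 47 and 79 after EPZ5676, 30 and 58 after MI-2-2 and 3 in each iBET library. The EPZ5676 and MI-2-2 libraries lay above both DMSO libraries, and the log2 fold changes were 3.03 (SE 0.55, edgeR adjusted p = 0.00485) and 2.22 (SE 0.55, edgeR adjusted p = 0.0144). The MI-2-2 call was lost without MI-2-2 library 2. All windows of its mRNA were unique, and its reads were 0.290% and 0.269% of those of the Rpl3 and Rpl3l pair in DMSO and 2.997% and 5.18% with EPZ5676. Against MM-401, Rpl3l was called higher with EPZ5676 (1.90, edgeR adjusted p = 0.0253) and lower with iBET (-2.65, edgeR adjusted p = 0.0364). The first of these calls was lost without EPZ5676 library 2 or MM-401 library 2, and the second, which rests on 3 reads in each iBET library, without any 1 library other than those of DMSO.

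Rpl36al, a relative of the X-linked Rpl36a, had 71.7 and 70.0 CPM in DMSO, 70.9 and 69.4 with MM-401, 46.9 and 49.7 after EPZ5676, 37.7 and 33.9 after MI-2-2 and 62.1 and 58.5 in iBET. MM-401 overlapped DMSO, EPZ5676 and MI-2-2 lay below it, and the log2 fold changes were -0.02 (SE 0.11, edgeR adjusted p = 0.977), -0.55 (SE 0.11, edgeR adjusted p = 0.00588) and -0.99 (SE 0.11, edgeR adjusted p = 0.000774). It held 95.7% to 97.5% of the reads of its pair in all libraries. Likewise Rps27l held 97.97% to 99.0% of the reads of the Rps27 and Rps27l pair, beside a share of unique windows of 77.6% for Rps27l and 1.4% for Rps27. In the Rpl7 pair, Rpl7l1, a protein of ribosome assembly, held 34.9% and 37.3% of the reads in DMSO, 40.7% and 43.0% after EPZ5676, 43.0% and 44.6% after iBET, 44.6% and 51.4% after MI-2-2 and 49.4% and 51.8% after MM-401. All inhibitor libraries lay above both DMSO libraries. With MM-401, the log2 fold change of Rpl7 was -0.79 (SE 0.18, edgeR adjusted p = 0.273) and that of Rpl7l1 0.06. Rpl7l1 was among the 3 highest members with MI-2-2 (-0.26, edgeR adjusted p = 0.372). Rpl22l1 held 9.64% and 12.3% of its pair with Rpl22 in DMSO, 6.25% and 6.89% with MM-401, and between 8.82% and 15.2% in the other 6 libraries. The ratios between relatives were not tested. Rps19bp1 fell with EPZ5676 (-0.59, edgeR adjusted p = 0.0341) and with MI-2-2 (-0.61, edgeR adjusted p = 0.0276), calls that were lost without DMSO library 2, and the former also without any 1 library of EPZ5676 or MM-401 and the latter without MI-2-2 library 1.

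The members were also split by the promoter motifs, as a description without a test. With MI-2-2, the median log2 fold change was -0.80 in the 29 members with a TOP-like tract and -0.76 in the 33 without one, and 24 members of each set were called lower. It was -0.78 in the 24 members with CCGGAAG, of which 22 were lower, and -0.74 in the 38 without, of which 26 were lower. It was -0.72 in the 20 members with CCATNTT, of which 11 were lower, and -0.79 in the 42 without, of which 37 were lower. The 6 members with CACGTG had a median of -0.72, and 3 of them were lower. The 56 without it had a median of -0.77, and 45 of them were lower. Of all tested genes, 21.2% were called lower with MI-2-2. With MM-401, where no member was called, the medians with and without the motif were -0.35 and -0.20 for the tract, -0.40 and -0.20 for CCGGAAG, -0.13 and -0.40 for CCATNTT and -0.15 and -0.31 for CACGTG.

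Most genes of a list of other TOP mRNAs fell beside the ribosomal protein genes with MI-2-2 and EPZ5676. The list held 22 genes, mostly translation factors but also others such as Vim, Hnrnpa1 and Nap1l1. Of these 22, 19 were lower with MI-2-2 and 13 with EPZ5676 (edgeR adjusted p under 0.05). Of all tested genes, 21.2% and 19.4% were lower. With iBET 2 of the 22 were lower, against 7.54% of all tested genes, and with MM-401 0 were, as was true of all tested genes. In each comparison 0 were higher, against 20.2% of all tested genes with MI-2-2 and 18.7% with EPZ5676. Eef1g, a subunit of the exchange factor of elongation factor 1, had 73.3 and 77.8 CPM in DMSO, 32.0 and 31.0 with EPZ5676 and 30.05 and 30.7 with MI-2-2 (log2 fold changes -1.26 and -1.31, SE 0.11 each, edgeR adjusted p = 0.000457 and 0.000393). Npm1, a nucleolar chaperone, fell with EPZ5676 and with MI-2-2 (log2 fold changes -1.38 and -1.95, edgeR adjusted p = 0.00395 and 0.00113). Of the 3 ribosomal proteins found under other names, Gnb2l1, which encodes RACK1, fell with MI-2-2 (log2 fold change -0.76, SE 0.16, edgeR adjusted p = 0.00768), and Fau (-0.69, edgeR adjusted p = 0.0524) missed the threshold.

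Among 11 genes for chaperones and quality control of ribosomal proteins, 8 were lower and 1 higher with EPZ5676 and 7 lower and 1 higher with MI-2-2. Of all tested genes, 19.4% were lower and 18.7% higher with EPZ5676, and 21.2% lower and 20.2% higher with MI-2-2. Tsr2, the chaperone of Rps26, had 20.6 and 40.1 CPM in DMSO, 10.9 and 14.1 with EPZ5676 and 10.4 and 12.5 with MI-2-2 (log2 fold changes -1.28 and -1.40, edgeR adjusted p = 0.0176 and 0.0113). The higher gene was Mdm2, the ubiquitin ligase of p53 that free Rpl5 and Rpl11 bind, which rose by 0.52 with EPZ5676 and by 0.80 with MI-2-2 (edgeR adjusted p = 0.0262 and 0.00458). Of 12 genes of the mTORC1 and LARP1 axis, 4 were lower with EPZ5676, and 3 were lower and 1 higher with MI-2-2, beside 19.4% and 21.2% of all tested genes called lower. Larp1, which binds TOP mRNAs, fell in both (log2 fold changes -0.82 and -0.90, edgeR adjusted p = 0.00464 and 0.00305), and Rps6kb2, an S6 kinase, was the gene that rose with MI-2-2 (0.48, edgeR adjusted p = 0.0172). Of 8 promoter factors, 7 passed the filter and Mycn had 0 reads. With EPZ5676, 1 of the 7 was lower and 1 higher, beside 19.4% and 18.7% of all tested genes. With MI-2-2, 2 were lower and 1 higher, beside 21.2% and 20.2%. Myc fell in both (log2 fold changes -1.10 and -1.44, edgeR adjusted p = 0.0164 and 0.00558), Zbtb7a rose by 0.67 and 0.66 (edgeR adjusted p = 0.00578 and 0.00572), and Gabpb1 fell with MI-2-2 (-0.45, edgeR adjusted p = 0.0127) and missed the threshold with EPZ5676 (-0.30, edgeR adjusted p = 0.0561). With iBET and MM-401 no gene of the last 3 lists was called.

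Markers of other myeloid stages moved with the same groups. The summed level of 6 neutrophil genes lay at 624 to 3448 CPM in DMSO, 4375 to 5737 with MM-401, 47407 to 64505 after EPZ5676, 42235 to 42480 after MI-2-2 and 472 to 1104 in iBET, and all 6 were called higher with EPZ5676 and with MI-2-2. The 5 macrophage genes found lay at 77.1 to 97.9 CPM in DMSO, 117 to 134 with MM-401, 369.6 to 461 after EPZ5676, 403 to 770.3 after MI-2-2 and 77.2 to 112 in iBET, and all 5 were called higher with EPZ5676 and with MI-2-2. Of all tested genes, 18.7% were called higher with EPZ5676 and 20.2% with MI-2-2. S100a9 alone took 1.37% to 2.24% of the reads in these 4 libraries. The part of these genes in the lower ribosomal protein counts was not tested. Scaling by total counts shifted the median of all tested genes to -0.23 with EPZ5676 and -0.20 with MI-2-2. The median of members relative to that of all genes was then -0.33 and -0.70, against -0.33 and -0.71 with TMM.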

How the data were processed

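RNA was isolated with RNeasy kits and sequenced from Illumina TruSeq libraries. The authors deposited raw read counts per gene for all 10 libraries, and the submitters' processing notes name TopHat2, Subread, DESeq and the mm9 build, with no versions or settings. How reads with several matches were counted, and whether strand was used, is not given in the sources used here.

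Counts were analysed with edgeR 4.0.16 in R 4.3.3 (filterByExpr, TMM, 1 quasi-likelihood fit of the 10 libraries, Benjamini-Hochberg adjustment over 12971 genes, threshold 0.05). SE is the absolute log2 fold change divided by the square root of F. DESeq2 1.42.0 was an alternative, and p-values that it left as NA stayed so. CPM values are TMM-scaled. Sequence windows used GENCODE M21, and promoters used RefSeq GRCm38.p6. The fit was tested on simulated data.

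Named genes were members with a relative in their family, the 3 highest and 3 lowest members per inhibitor against DMSO, members of known role, and Rps19bp1. Rps2 and Rpl41 were added after their values were seen. Of the related lists, only some genes are named, without a rule. The members and lists were chosen with earlier results of these data known. The alternatives changed scaling, filter, test, replicate block, samples in the fit, members counted and each library left out. A few genes are not reported here.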

Additional observations from a re-analysis of the deposited data

How the results depend on the processing

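The median member log2 fold change kept its sign in every alternative run, and counts of calls moved much more than medians. With 1 library left out, the counts of members called against DMSO ranged from 28 to 71 for MI-2-2, 6 to 30 for EPZ5676, 0 to 12 for iBET and 0 to 7 for MM-401, and the counts against MM-401 from 9 to 43 for MI-2-2, 1 to 31 for EPZ5676 and 0 to 4 for iBET. The medians against DMSO ranged from -0.9004 to -0.6532 for MI-2-2, -0.4607 to -0.2959 for EPZ5676, -0.3592 to -0.2624 for iBET and -0.3051 to -0.2225 for MM-401, and those against MM-401 from -0.5955 to -0.4033 for MI-2-2, -0.2039 to -0.0546 for EPZ5676 and -0.1071 to -0.033 for iBET. The median of EPZ5676 against MI-2-2 ranged from 0.294 to 0.4979. DESeq2 called 12 members lower for MM-401 and 17 lower for iBET against DMSO, and 8 higher for EPZ5676 against MI-2-2. Of the genes it tested, 1.08%, 11.3% and 0.529% were called in the same direction. For iBET against MM-401 it called 2 members higher and 2 lower, beside 1066 higher and 1226 lower among the 12971 genes tested by edgeR. Fits of 2 groups alone, which have fewer samples, called 4 members for MI-2-2, 3 for EPZ5676 and 0 for iBET against DMSO, and 13 for iBET against MM-401. Against DMSO these were 4.88%, 3.66% and 0.0% of members, with 9.12%, 9.34% and 0.0% of all genes tested. Total-count scaling called 45 for EPZ5676 against DMSO, with 42.9% of all genes, and gave medians of -0.5594 for EPZ5676 and -0.9093 for MI-2-2 against DMSO and of -0.3099 and -0.6306 against MM-401. With no filter, 14 members (17.1%) were called for EPZ5676 against DMSO, with 26.5% of all genes, and 0 for iBET, with 9.43% of all genes. A filter of at least 5 CPM in 2 libraries called 7 (10.0%) for iBET against DMSO, with 14.7% of all genes. It gave medians of -0.0096 for EPZ5676 and -0.4071 for MI-2-2 against MM-401. The causes of these shifts were not tested.

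2 alternatives were chosen after seeing the data. Among the 34 members with at least 50% unique windows, 30 were called for MI-2-2, 12 for EPZ5676 and 1 for iBET against DMSO. These were 88.2%, 35.3% and 2.94%, with 41.4%, 38.1% and 13.9% of all tested genes. Against MM-401, 18 (52.9%) were called for MI-2-2 and 8 (23.5%) for EPZ5676, with 35.7% and 33.3% of all tested genes. For iBET against MM-401, 1 (2.94%) was lower, with 5.96% of all tested genes. The median for MM-401 against DMSO was -0.1302. Without Rps19bp1 and the relatives, 0 were called for iBET against MM-401. Without those genes the mean share of reads was 1.21% for MM-401, 1.07% for EPZ5676 and 1.17% for iBET, with the names containing -ps added it was 1.29%, 1.12% and 1.24%, and per TMM effective library size 1.21%, 1.17% and 1.17%. Across 80 called results for named members, 1053 of 1352 alternative values kept the call and 299 lost it.

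The replicate numbers 1 and 2 are shared by all groups, and nothing in the labels says what they pair. Deviations of same-numbered libraries correlated with r from 0.303 to 0.704 over all tested genes. With the replicate block, 11 members (13.4%) were called for iBET against DMSO, with 23.8% of all genes, and 5 (6.10%) for iBET against MM-401, with 19.0% of all genes.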
